A study of Mus musculus with 48 samples.

Results

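Matrix metalloproteinases and their inhibitors were described as 10 genes, chosen by symbol from the 35870 genes of the deposited count table. All 10 were found. They are 6 proteases (Mmp2, Mmp9, Mmp12, Mmp13, Mmp14 and Mmp19) and the 4 tissue inhibitors of metalloproteinases (Timp1, Timp2, Timp3 and Timp4). Messenger RNA was sequenced in 48 libraries of wild type C57BL/6 mice, which the study's title gives as male, with 8 libraries in each of 6 groups. Microglia (brain-resident macrophages) were isolated by flow cytometry from dissociated brain as Cd11b+ and Cd45+ cells, and spinal cord was taken whole from perfused mice. In each tissue the repopulated group was 23 months old and received a Csf1r inhibitor for 5 days followed by 7 days of recovery, the old group was 23 months old and received vehicle, and the young group was 3 months old and received vehicle. Csf1r is the receptor whose signal keeps microglia alive, and its inhibition removes them until new cells fill the tissue. Dose and name of the inhibitor are not stated in the labels, and there was no young group that received the inhibitor. The gate on Cd11b and Cd45 is shared by all myeloid cells, so it does not by itself separate microglia from blood leukocytes. Whether each library came from its own animal is not stated, and p-values then describe only how these libraries vary, which may be technical.

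Matrix metalloproteinases are zinc-dependent proteases that are made as inactive precursors, secreted or held at the cell surface, and activated by removal of a propeptide. They cleave collagens, laminins, elastin and proteoglycans, as well as cytokines and cell surface proteins, and in the nervous system they are studied for opening the basement membranes of vessels and for remodelling the matrix around synapses and myelin. The 4 inhibitors bind the active site of the proteases, and each has its own range of targets, so that the level of a protease transcript alone does not give its activity. Transcript levels were measured here, and neither protein nor activity was.

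The 6 protease genes lie on 5 chromosomes in the GENCODE M21 annotation of GRCm38. Mmp12 (chr9:7344381-7369499) and Mmp13 (chr9:7272514-7283331) are neighbours at the start of a run of 10 protease genes on chromosome 9, which continues with Mmp1b, Mmp3, Mmp1a, Mmp10, Mmp8, Mmp27, Mmp20 and Mmp7. Mmp2 lies at chr8:92827291-92853420, Mmp9 at chr2:164940780-164955850, Mmp14 at chr14:54431612-54445364 and Mmp19 at chr10:128790910-128800824. Timp1 (chrX:20870166-20874735), Timp3 (chr10:86300372-86349506) and Timp4 (chr6:115241892-115252205) each lie inside the span of a synapsin gene, Syn1, Syn3 and Syn2 in that order, on the opposite strand. Timp2 lies at chr11:118301069-118355740. The library kit did not keep the strand, so reads from exon bases shared between opposite strands cannot be told apart. These shared bases make up 22.3% of the exon bases of Mmp19 (with Tmem198b), 21.3% of those of Timp3 (with Syn3), 2.17% of those of Mmp12 (with Mmp1b) and 1.53% of those of Timp4 (with Syn2), and there are 0 for Timp1.

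The upstream sequences of 3 of these genes are shown because Mmp12 and Timp1 had the largest age differences of the 10 genes in the cord, and Mmp13 is the neighbour of Mmp12 whose level did not pass the test. Each sequence holds the 250 bases before a RefSeq start on the plus strand of GRCm38.p6. Capitals mark matches, on either strand, to the AP-1 motif TGANTCA or to the ETS motif AGGAAGT. AP-1 and ETS are families of transcription factors that are textbook regulators of metalloproteinase genes. The windows are chr9:7347124-7347373 for the second RefSeq start of Mmp12, chr9:7272264-7272513 for Mmp13 and chrX:20869916-20870165 for Timp1.
Mmp12: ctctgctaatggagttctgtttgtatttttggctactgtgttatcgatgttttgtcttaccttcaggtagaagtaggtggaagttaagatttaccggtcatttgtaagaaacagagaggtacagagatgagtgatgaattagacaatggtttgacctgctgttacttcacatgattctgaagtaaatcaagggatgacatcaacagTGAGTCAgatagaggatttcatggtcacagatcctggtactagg
Mmp13: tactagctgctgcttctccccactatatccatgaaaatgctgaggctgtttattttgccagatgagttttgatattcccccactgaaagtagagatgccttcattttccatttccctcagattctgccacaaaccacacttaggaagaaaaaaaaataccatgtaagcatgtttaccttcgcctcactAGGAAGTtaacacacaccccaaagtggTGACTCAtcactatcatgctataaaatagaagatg
Timp1: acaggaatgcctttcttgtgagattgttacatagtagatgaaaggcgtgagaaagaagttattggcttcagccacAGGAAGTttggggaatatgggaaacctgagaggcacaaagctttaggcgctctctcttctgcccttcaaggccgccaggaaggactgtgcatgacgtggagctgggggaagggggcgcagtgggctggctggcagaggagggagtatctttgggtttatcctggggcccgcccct
The AP-1 match of Mmp12 lies 44 bases before the start, and that of Mmp13 lies 35 bases before it. The ETS match lies 62 bases before the start of Mmp13 and 175 bases before that of Timp1. Of 32851 RefSeq windows of the same length, 6.75% held the AP-1 motif and 7.69% held the ETS motif. The window of the first Mmp12 start and that of Timp4 held 1 ETS match each, and those of Mmp14, Timp2 and Timp3 held neither. A match describes the letters of the window only. Promoters of Mmp2, Mmp9 and Mmp19 were not analysed here.

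Library totals were 23808223 to 31414974 reads in repopulated, 18741936 to 27755121 in old and 28373152 to 34496308 in young microglia, and 15909868 to 33004806 in repopulated, 22802459 to 31075737 in old and 23756093 to 32172147 in young cord. Repopulated cord replicate 6 stood apart for 4 of the 10 genes (Mmp13, Mmp14, Timp1 and Timp4), and cord results for these genes, the tissue differences and the cord sums are also given without it. The label of microglia was checked against 11 marker genes, whose summed level had a median of 46835, 44702 and 62747 CPM (read counts scaled to library size) in repopulated, old and young microglia, and of 472, 401 and 284 CPM in repopulated, old and young cord. Markers of neutrophils, the granulocytes of the blood, were also present in every sorted group, with a median sum over 10 genes of 1378 CPM in repopulated, 4776 CPM in old and 515 CPM in young microglia. CPM here are scaled by the trimmed mean of M-values (TMM) within each tissue and are used to compare libraries, while the authors' TPM, which are also divided by gene length, are used to compare genes. A gene was called when the adjusted p of the edgeR quasi-likelihood test was under 0.05.

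Per length, Timp2 was the most abundant of the 10 transcripts in every group of both tissues. Timp2, a secreted inhibitor that also takes part in the activation of the Mmp2 precursor, had a median of 475, 578 and 551 TPM in repopulated, old and young microglia and of 557, 567 and 523 TPM in repopulated, old and young cord. In young microglia the order continued with Mmp14 at 75.9 TPM, Mmp2 at 50.6 TPM and Mmp9 at 16.5 TPM, and the ranges of these 4 transcripts did not overlap. Timp3 followed at 10.3 TPM, within the range of Mmp9, and then Timp4 at 3.54 TPM. Mmp19, Mmp12, Mmp13 and Timp1 each had a median under 1 TPM there. In old microglia Mmp9 stood second at 115 TPM, overlapping Mmp14 at 107 TPM, and Mmp12 stood just above Timp3, at 22.6 against 12.96 TPM with overlap. In repopulated microglia Mmp14 at 101 TPM overlapped Mmp2 at 87.3 TPM, and both lay above Mmp9 at 32.5 TPM, Timp3 at 7.50 TPM and Mmp12 at 3.11 TPM.

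The cord had another order, in which inhibitors took the first 3 places. After Timp2 came Timp3 at 243, 265 and 234 TPM and Timp4 at 70.0, 67.4 and 74.8 TPM in repopulated, old and young cord. Mmp14 followed at 49.1, 49.5 and 43.0 TPM. Timp1 and Mmp2 overlapped each other in repopulated cord (22.8 TPM each) and in old cord (22.9 and 22.1 TPM), whereas in young cord Mmp2 had 16.5 TPM and Timp1 4.31 TPM with no overlap. Mmp9 had 7.85, 9.52 and 10.2 TPM in repopulated, old and young cord. Mmp12 had 5.36 and 5.54 TPM in repopulated and old cord and was the last of the 10 in young cord, at 0.0375 TPM. Repopulated cord replicate 6 had the lowest Timp2 value of its group, 233 TPM.

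**Figure D1:**
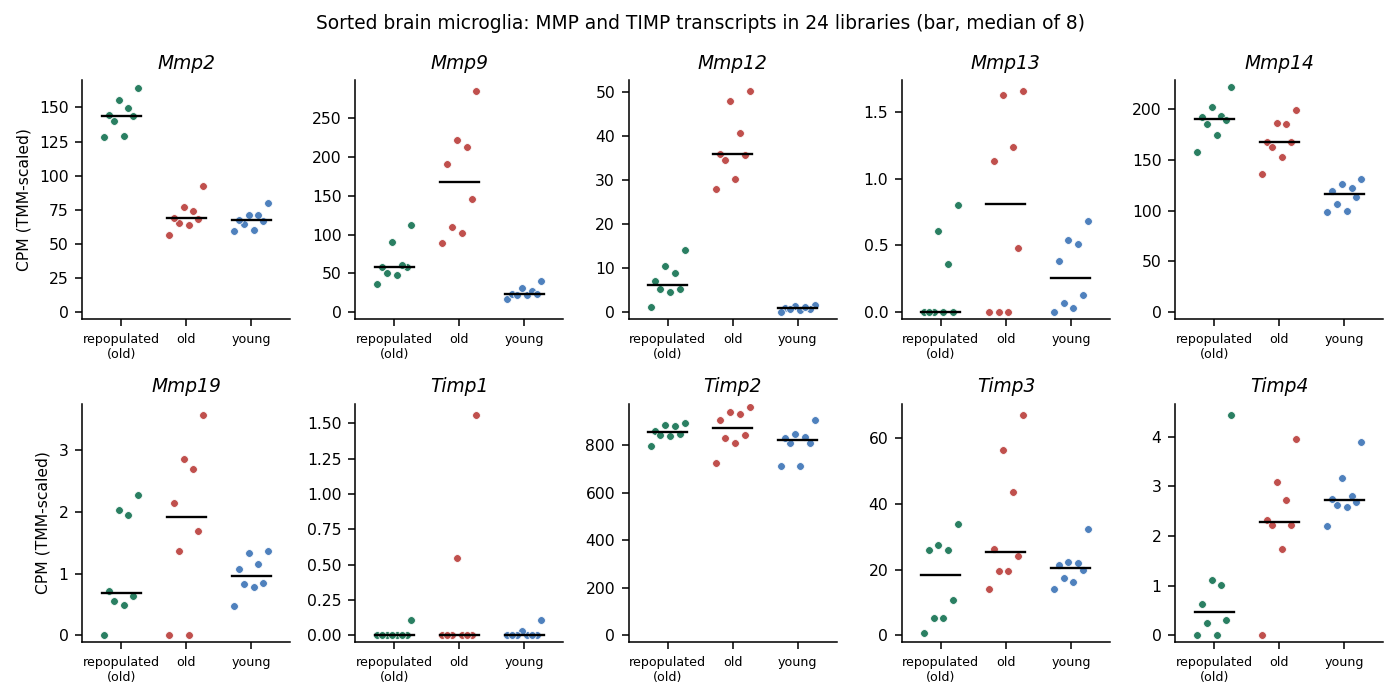
TMM-scaled CPM (vertical axes, linear) of the 10 transcripts in 8 repopulated, 8 old and 8 young microglia libraries, one point per library, with a bar at the median. Mmp12 and Mmp9 are highest in old microglia (medians 35.9 and 168 CPM), Mmp2 is highest in repopulated microglia (144 CPM), and Timp1 is at 0 in most libraries.

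In microglia, 3 of the 9 genes tested were higher in old than in young libraries: Mmp9, Mmp12 and Mmp14. Mmp2 was higher and Mmp9 and Mmp12 were lower in repopulated than in old microglia. In repopulated against young microglia, Mmp2, Mmp9, Mmp12 and Mmp14 were higher. All of the genes that passed were proteases. Timp1 did not pass the filter on low counts in microglia and was not tested there. Over all 14382 genes tested, 11% were called higher and 10.7% lower in old than in young microglia, 9.05% higher and 7.2% lower in repopulated than in old, and 16.1% higher and 16.5% lower in repopulated than in young, and the groups did not overlap for 7.16%, 3.06% and 13.1% of genes in these 3 comparisons. The median log2 fold change of the 9 genes was 0.71, -1 and 0.14 in the 3 comparisons in that order, against -0.01, -0.04 and -0.06 over all genes. These medians were the values of uncalled genes, Timp3 in the first and second comparison (SE 0.41 and 0.42) and Mmp19 in the third (SE 0.77). Members did not move together, and in repopulated against old microglia they ran from -2.42 for Mmp12 to 1.03 for Mmp2. Because each group enters 2 of these comparisons, the 3 results are not independent. In sorted cells, as in whole tissue, fewer cells of a type and less RNA per cell cannot be told apart.

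The share of calls that were higher depended on the scaling in these comparisons, so directions are relative to the TMM scale. It was 50.7% for old against young microglia with TMM, 60.9% with DESeq2 size factors and 60.5% with total counts. For repopulated against old microglia it was 55.7% with TMM and 17.6% with total counts, where the median log2 fold change over all genes was -0.21, and for repopulated against young microglia it was 49.4% and 31.8%, with a median of -0.19. The calls of Mmp2, Mmp9, Mmp12 and Mmp14 in microglia held on all 3 scalings, with the same directions.

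Mmp12, the macrophage elastase, a secreted protease of activated macrophages, had the largest difference of the 10 genes with age in microglia. Its lowest, median and highest values were 1.13, 6.12 and 14.2 CPM in repopulated microglia, 27.9, 35.9 and 50.2 CPM in old microglia and 0.0719, 0.821 and 1.69 CPM in young microglia. Every old library lay above every repopulated and every young library, and 7 of the 8 repopulated libraries lay above all young ones, the exception being repopulated replicate 2. The log2 fold change was 5.40 (SE 0.38) in old against young microglia (42.3-fold, edgeR adjusted p = 2.567e-12). In repopulated against old microglia it was -2.42 (SE 0.33, adjusted p = 2.283e-06), a level 5.35-fold lower. Repopulated libraries were also higher than young ones, with a log2 fold change of 2.98 (SE 0.36, 7.92-fold, adjusted p = 6.253e-08). Summed markers of other myeloid cells moved in the same directions in old against young and in repopulated against old microglia. Of 8 monocyte markers 7 were higher in old than in young microglia (11% of all genes) and 5 were lower in repopulated than in old (7.2% of all genes), with a summed level of 298 to 691 CPM in repopulated, 543 to 1310 CPM in old and 93.2 to 252 CPM in young microglia. Of 8 markers of border-associated macrophages, the macrophages of meninges and vessels, 4 were higher in old than in young microglia (11% of all genes) and all 8 were lower in repopulated than in old (7.2% of all genes), with sums of 75.2 to 184, 316 to 664 and 156 to 391 CPM in repopulated, old and young microglia. Unlike Mmp12, the border macrophage sum had a lower median in repopulated than in young microglia, 103 against 238 CPM. No marker of either list was at 0 throughout a group. Within groups, over the 24 libraries, the correlation of Mmp12 with the monocyte, border macrophage and neutrophil sums was -0.03, 0.18 and -0.02 on the log2 scale, and their part in the result was not tested beyond this.

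Mmp9, gelatinase B, which cleaves denatured collagen and type IV collagen and is stored ready-made in neutrophil granules, was the other protease with a peak in old microglia. It had 36.2, 57.9 and 113 CPM (lowest, median and highest) in repopulated microglia, 89.2, 168 and 286 CPM in old microglia and 16.5, 23.4 and 40.8 CPM in young microglia. Old and young libraries did not overlap, 6 of 8 repopulated libraries lay below all old ones, and 7 of 8 lay above all young ones. The log2 fold change was 2.72 (SE 0.23, 6.57-fold, adjusted p = 2.036e-10) in old against young microglia. Repopulated libraries had 2.64-fold less than old ones (-1.40, SE 0.22, adjusted p = 2.894e-05), and 2.49-fold more than young ones (1.31, SE 0.23, adjusted p = 2.296e-05).

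The level of Mmp9 in microglia moved with that of neutrophil markers (S100a8, S100a9, Ngp, Camp, Ltf, Retnlg, Ly6g, Lcn2, Elane and Mpo). Of these 10 genes, 9 were higher in old than in young microglia (11% of all genes), 8 were lower in repopulated than in old (7.2% of all genes), and 9 were higher in repopulated than in young (16.1% of all genes). Their summed level was 845 to 3839 CPM in repopulated, 2121 to 9215 CPM in old and 224 to 1043 CPM in young microglia, and none of the 10 was at 0 throughout a group. Within the 8 old libraries the log2 level of Mmp9 followed the log2 sum with a Pearson r of 0.987 (exact permutation p = 7.44e-05, adjusted over the 3 groups 0.000223) and a Spearman rho of 0.976 (exact permutation p = 0.000397, adjusted 0.00119), and r was 0.981 without the 2 libraries farthest from the median. Within the 8 repopulated libraries r was 0.86 (exact permutation p = 0.00866, adjusted 0.013) and rho 0.738 (exact permutation p = 0.0458, adjusted 0.0687), but r was 0.477 without the 2 farthest libraries. Within the 8 young libraries r was 0.752 (exact permutation p = 0.0306, adjusted 0.0306) and rho 0.476 (exact permutation p = 0.243, adjusted 0.243), and r was 0.047 without the 2 farthest. The libraries left out were those farthest in the sum itself, which narrows its range and can lower r. The relation within repopulated and young microglia is therefore uncertain. With the neutrophil sum as a covariate in the edgeR fit, an alternative added after the data had been seen, Mmp9 was no longer called, in a fit that made far fewer calls over all genes in old against young microglia (379, against 3128 without the covariate), with a log2 fold change of 0.71 in old against young (adjusted p = 0.15), -0.39 in repopulated against old (adjusted p = 0.128) and 0.32 in repopulated against young microglia (adjusted p = 0.182). In the same fits Mmp12 kept its calls, with log2 fold changes of 5.27, -2.36 and 2.92 in the 3 comparisons, and the calls of Mmp2 and Mmp14 also held. Neutrophil sums of old and young libraries did not overlap, so the covariate stood in part for the group, and these fits cannot separate them. Whether the Mmp9 reads came from neutrophils or from microglia was not tested.

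**Figure D2:**
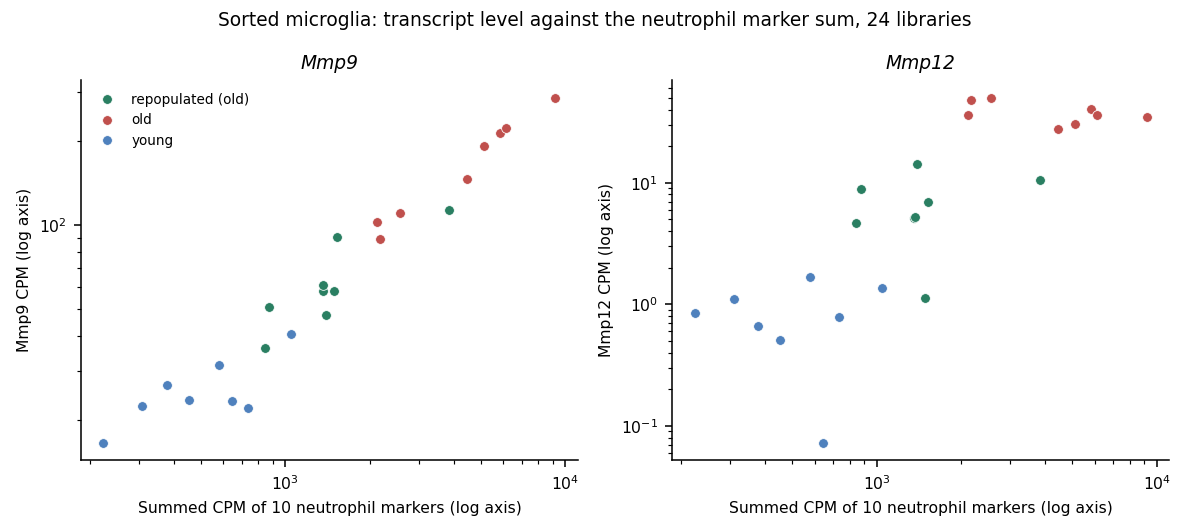
Mmp9 (left) and Mmp12 (right) in CPM against the summed CPM of 10 neutrophil markers, both axes logarithmic, one point for each of 24 microglia libraries coloured by group. Mmp9 climbs with the sum within the old libraries (r 0.987), whereas Mmp12 spreads over 27.9 to 50.2 CPM in old libraries whose sums run over 2121 to 9215 CPM.

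Mmp2, gelatinase A, a secreted protease whose precursor is activated at the cell surface by Mmp14 together with Timp2, behaved differently from Mmp9. It had 128, 144 and 165 CPM (lowest, median and highest) in repopulated microglia, 56.5, 68.7 and 92.1 CPM in old microglia and 59.3, 67.2 and 79.8 CPM in young microglia. Every repopulated library lay above every old and every young library, while old and young libraries overlapped. The log2 fold change was 1.03 (SE 0.08, 2.04-fold, adjusted p = 3.439e-10) in repopulated against old microglia and 1.09 (SE 0.08, 2.13-fold, adjusted p = 4.266e-12) in repopulated against young. In old against young microglia it was 0.07 (SE 0.08, adjusted p = 0.6715), with an approximate 95% interval of -0.10 to 0.23.

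Mmp14, the membrane-type protease that activates the Mmp2 precursor and cleaves fibrillar collagen at the cell surface, had 158, 191 and 222 CPM in repopulated microglia, 136, 168 and 199 CPM in old microglia and 98.6, 116 and 131 CPM in young microglia. Neither old nor repopulated libraries overlapped with young ones, whereas repopulated and old libraries overlapped. It was higher in old than in young microglia by a log2 fold change of 0.57 (SE 0.08, 1.48-fold, adjusted p = 1.892e-06) and in repopulated than in young by 0.73 (SE 0.08, adjusted p = 9.176e-09). Repopulated and old microglia differed by 0.16 (SE 0.08, adjusted p = 0.1756), with an interval of 0.01 to 0.31.

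The remaining proteases were scarce in microglia. Mmp13, a collagenase, was at 0 in 5 repopulated, 3 old and 1 young microglia libraries, and its highest values were 0.806, 1.66 and 0.684 CPM in these groups. Mmp19, which cleaves components of basement membranes, had medians of 0.681, 1.92 and 0.96 CPM in repopulated, old and young microglia. Neither passed the test in any comparison of microglia, and the standard errors of their log2 fold changes were 0.77 or more. A count of 0 in these libraries allows up to 0.155 CPM at most, and this limit covers counting error only.

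No inhibitor was called in microglia with edgeR, TMM and all libraries. Timp2 had 795, 853 and 891 CPM in repopulated, 726, 873 and 961 CPM in old and 711, 820 and 905 CPM in young microglia, and the 3 groups overlapped. Its log2 fold change was 0.10 (interval -0.02 to 0.22) in old against young, -0.02 (-0.14 to 0.10) in repopulated against old and 0.08 (-0.04 to 0.20) in repopulated against young microglia, none of which passed the edgeR test. These values depend on the scale. With total counts Timp2 was called lower in repopulated than in old microglia (log2 fold change -0.19, adjusted p = 0.0109), and on log2(TPM + 1) it was called lower in repopulated than in young microglia as well (-0.24, adjusted p = 0.00131).

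Timp3, which binds to the matrix and also inhibits ADAM proteases, had 0.717, 18.3 and 33.9 CPM in repopulated, 14.2, 25.2 and 67.1 CPM in old and 14.1, 20.5 and 32.3 CPM in young microglia. Timp4, an inhibitor known from heart and brain, had 0, 0.477 and 4.44 CPM in repopulated, 0, 2.28 and 3.95 CPM in old and 2.20, 2.72 and 3.90 CPM in young microglia. Repopulated libraries spread widely for both genes, and 7 of 8 lay below all young ones for Timp4. Neither gene was called after adjustment. Unadjusted p-values of the edgeR test were 0.02259 for Timp3 in repopulated against old microglia (log2 fold change -1, SE 0.42) and 0.04418 for Timp4 in repopulated against young (-1.54, SE 0.73). Without repopulated replicate 4, which had the highest Timp4 of its group, both genes were called lower in repopulated than in old microglia, at -2.23 for Timp4 (adjusted p = 0.0282). Timp4 was also called lower in repopulated than in old and in young microglia with the DESeq2 Wald test (-1.78 and -2.05, adjusted p = 0.0247 and 0.00419) and on log2(TPM + 1) (-1.02 and -1.46), and in repopulated against young with the replicate block. Timp3 was called lower in repopulated than in old microglia with total counts (-1.17, adjusted p = 0.0449) and on log2(TPM + 1) (-1.37). In the microglia libraries Timp3 followed the summed level of 8 endothelial markers (r = 0.73 after subtraction of group means, 24 libraries), which was 51.6 to 205 CPM in repopulated, 139 to 381 CPM in old and 102 to 248.6 CPM in young microglia.

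Timp1, the inhibitor that is induced in glia after injury and that binds the Mmp9 precursor, was at 0 in 7 of 8 repopulated, 6 of 8 old and 6 of 8 young microglia libraries. The highest value was 0.107 CPM in repopulated microglia (3 reads), 1.56 CPM in old microglia (44 reads in replicate 4, next highest 0.55 CPM) and 0.111 CPM in young microglia (4 reads). Libraries at 0 allow up to 0.136, 0.155 and 0.108 CPM in repopulated, old and young microglia, so most of these libraries lay at or under the limit that a count of 0 allows.

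**Figure D3:**
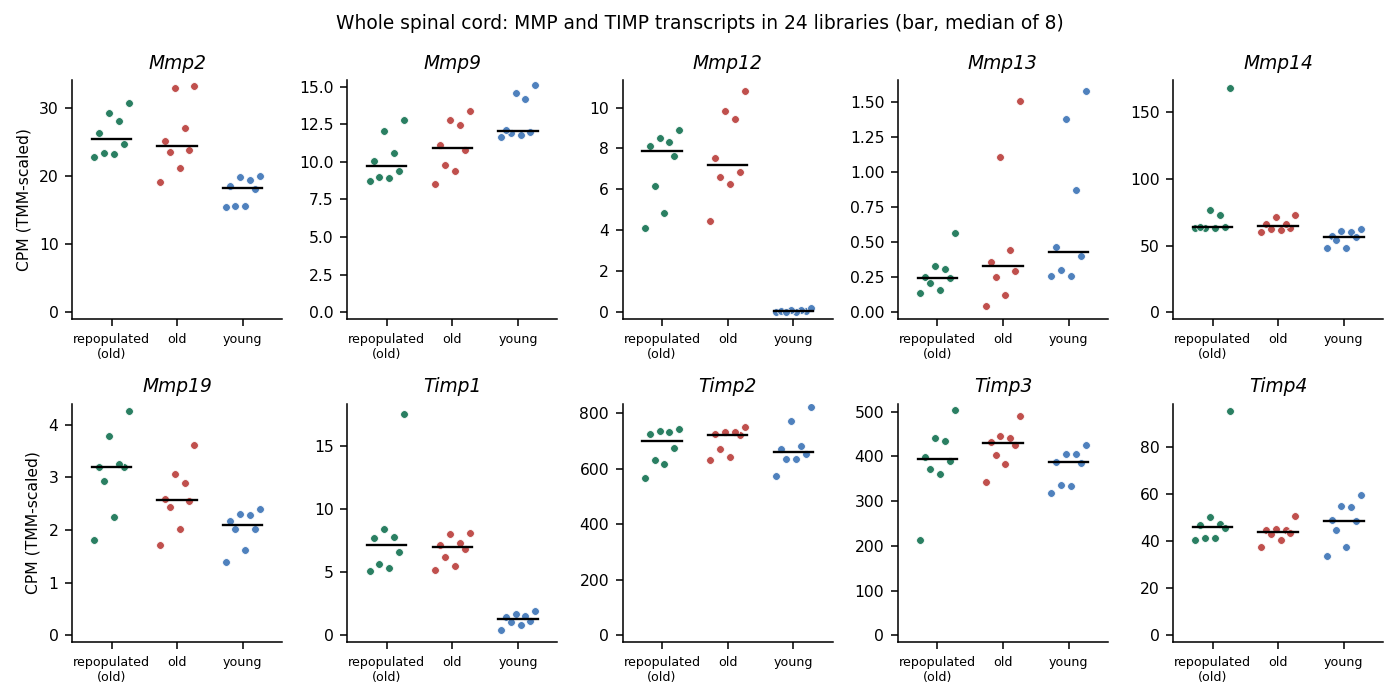
TMM-scaled CPM (vertical axes, linear) of the 10 transcripts in 8 repopulated, 8 old and 8 young whole spinal cord libraries, one point per library, with a bar at the median. Mmp12 and Timp1 are low in every young library (highest 0.184 and 1.93 CPM) and higher in every repopulated and old one, and 1 repopulated library, replicate 6, lies alone above the others for Mmp14, Timp1 and Timp4.

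In the cord, Mmp2, Mmp12 and Timp1 were higher in old than in young libraries. None of the 10 genes passed the test in repopulated against old cord, and the smallest unadjusted p of the edgeR test among them was 0.08008, for Mmp13. In repopulated against young cord, Mmp2, Mmp12, Mmp14, Mmp19 and Timp1 were higher and Mmp9 was lower. Over all 18271 genes tested in the cord, 4.88% were called higher and 1.26% lower in old than in young, 0.148% higher and 0% lower in repopulated than in old (230 lower at an unadjusted p under 0.05, and 4 lower with the DESeq2 Wald test), and 7.28% higher and 2.78% lower in repopulated than in young. Groups did not overlap for 3.06%, 0.0493% and 3.61% of genes in these comparisons. The counts of members were 3 of 10 against a background of 4.88% and 5 of 10 against 7.28% in the higher direction. The 10 genes were chosen with earlier results of these data known, so these counts do not test the family. The median log2 fold change of the 10 genes was 0.20, -0.02 and 0.30 in the 3 comparisons, against -0.01, 0.01 and 0.01 over all genes.

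Mmp12 was nearly missing from young cord. It had 4.10, 7.88 and 8.89 CPM (lowest, median and highest) in repopulated cord, 4.47, 7.19 and 10.8 CPM in old cord and 0, 0.0499 and 0.184 CPM in young cord. All repopulated and old libraries lay far above all young ones, of which 3 had no read and the others at most 5, while repopulated and old libraries overlapped. Old against young cord had a log2 fold change of 6.97 (SE 0.34, adjusted p = 8.328e-13), and repopulated against young one of 6.85 (SE 0.35, adjusted p = 5.92e-13). As young cord had 0 to 5 reads, the size of these folds is loosely fixed, and on log2(TPM + 1) they were 2.70 and 2.49. In repopulated against old cord the log2 fold change was -0.12 (SE 0.20, adjusted p = 0.8254), with an interval of -0.52 to 0.27. Cord markers of microglia were also higher with age, 6 of 11 genes in old against young cord (4.88% of all genes) and 8 of 11 in repopulated against young (7.28% of all genes), with summed levels of 416.3 to 582, 367 to 462 and 258 to 345 CPM in repopulated, old and young cord. Over 23 cord libraries, without replicate 6, Mmp12 had a correlation of -0.01 with this sum within groups, and its part in the result was not tested further.

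Timp1 was the other transcript with a large age difference in the cord. It had 5.10, 7.19 and 17.5 CPM in repopulated cord, 5.22, 7.02 and 8.16 CPM in old cord and 0.398, 1.32 and 1.93 CPM in young cord. All repopulated and old libraries lay above all young ones, and the highest repopulated value was that of replicate 6, with the next at 8.45 CPM. The log2 fold change was 2.42 (SE 0.26, 5.37-fold, adjusted p = 2.631e-07) in old against young cord and 2.65 (SE 0.26, 6.28-fold, adjusted p = 4.609e-08) in repopulated against young. Without replicate 6 the second was 2.40 (SE 0.20, adjusted p = 4.45e-09). In repopulated against old cord it was 0.22 (SE 0.23, adjusted p = 0.7312) with all libraries and -0.03 without replicate 6. The cord holds astrocytes, endothelial cells and meningeal cells beside microglia, and none of these were sorted here. The summed level of 8 astrocyte markers had medians of 5078, 4837 and 4453 CPM in repopulated, old and young cord, with 1 of the 8 higher in old than in young (4.88% of all genes). Within groups, without replicate 6, Timp1 had a correlation of -0.30 with this sum, -0.001 with the endothelial sum and 0.11 with the microglia sum. It had 0.61 with the fibroblast and meningeal sum and 0.62 with the border macrophage sum. The part of these cells in the result was not tested.

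Mmp2 rose moderately in the aged cord. It had 22.8, 25.5 and 30.7 CPM in repopulated, 19.2, 24.5 and 33.2 CPM in old and 15.5, 18.3 and 20.1 CPM in young cord. All repopulated libraries and 7 of 8 old ones lay above all young ones. On the log2 scale the difference was 0.53 (SE 0.10, 1.45-fold, adjusted p = 0.0009397) in old against young and 0.55 (SE 0.10, 1.46-fold, adjusted p = 0.0004673) in repopulated against young cord, and 0.02 (interval -0.18 to 0.22) in repopulated against old. On log2(TPM + 1) the call in repopulated against young was lost (0.43, adjusted p = 0.101). The summed level of 8 markers of fibroblasts and meninges, cells that make Mmp2 in many tissues, had medians of 1240, 1341 and 1541 CPM in repopulated, old and young cord. Of these 8 genes 1 was called higher and 1 lower in old than in young cord (4.88% and 1.26% of all genes). Within groups, without replicate 6, Mmp2 had a correlation of 0.885 with this sum, and its part in the result was not tested.

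Mmp14 in the cord depended on 1 library, for the size of repopulated against young and for the call of old against young. It had 62.9, 64.1 and 168 CPM in repopulated, 60.5, 64.7 and 73.2 CPM in old and 47.97, 56.5 and 62.05 CPM in young cord, and the second highest repopulated value was 76.5 CPM. Repopulated and young libraries did not overlap, and 6 of 8 old libraries lay above all young ones. With all libraries the log2 fold change was 0.50 (SE 0.15, adjusted p = 0.03693) in repopulated against young cord and 0.23 (SE 0.15, adjusted p = 0.5468) in old against young. Without replicate 6 it was 0.26 (SE 0.06, adjusted p = 0.00609) in repopulated against young, and old against young was called as well, at 0.24 (SE 0.06, adjusted p = 0.0108). Of 10 alternative settings, this one included, 6 left old against young uncalled. With replicate 6 kept, the call in repopulated against young was lost without repopulated replicate 2 or young replicate 3, 6, 7 or 8 (adjusted p = 0.0515 to 0.0734).

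Mmp19 had 1.81, 3.20 and 4.26 CPM in repopulated, 1.71, 2.57 and 3.62 CPM in old and 1.40, 2.10 and 2.40 CPM in young cord. It was higher in repopulated than in young cord, by a log2 fold change of 0.60 (SE 0.16, 1.52-fold, adjusted p = 0.0157), with 6 of 8 libraries above all young ones, but not on log2(TPM + 1) (adjusted p = 0.205), and in old against young cord it had 0.37 (SE 0.16, adjusted p = 0.2647). Mmp9 was the only one of the 10 genes called lower in a cord comparison. It had 8.70, 9.73 and 12.8 CPM in repopulated, 8.51, 10.95 and 13.4 CPM in old and 11.6, 12.05 and 15.1 CPM in young cord, and 6 of 8 repopulated libraries lay below all young ones. The log2 fold change was -0.34 (SE 0.10, adjusted p = 0.02868) in repopulated against young cord, a call that was lost without young replicate 4 or 8 (adjusted p = 0.0571 and 0.0623) and with the replicate block (0.0685), and -0.22 (SE 0.10, adjusted p = 0.2615) in old against young. Mmp13 stayed at or under 1.57 CPM in every cord library and was not called, with -1.36 (SE 0.54, adjusted p = 0.1121) in repopulated against young cord and -1.53 (SE 0.57, adjusted p = 0.0742) without replicate 6.

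The other 3 inhibitors were not called in any comparison of the cord. Timp2 had medians of 699, 724 and 662 CPM, Timp3 of 394, 429.3 and 386 CPM and Timp4 of 46.2, 44.1 and 48.8 CPM in repopulated, old and young cord. The log2 fold changes in old against young cord were 0.04 (interval -0.09 to 0.18) for Timp2, 0.17 (-0.05 to 0.39) for Timp3 and -0.13 (-0.41 to 0.16) for Timp4. Repopulated replicate 6 held the lowest Timp3 value of the cord, 214 CPM, and the highest Timp4 value, 95.4 CPM, with the next Timp4 value of its group at 50.2 CPM. Without it the log2 fold change of Timp4 was 0.03 in repopulated against old and -0.09 in repopulated against young cord, and neither was called.

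**Figure D4:**
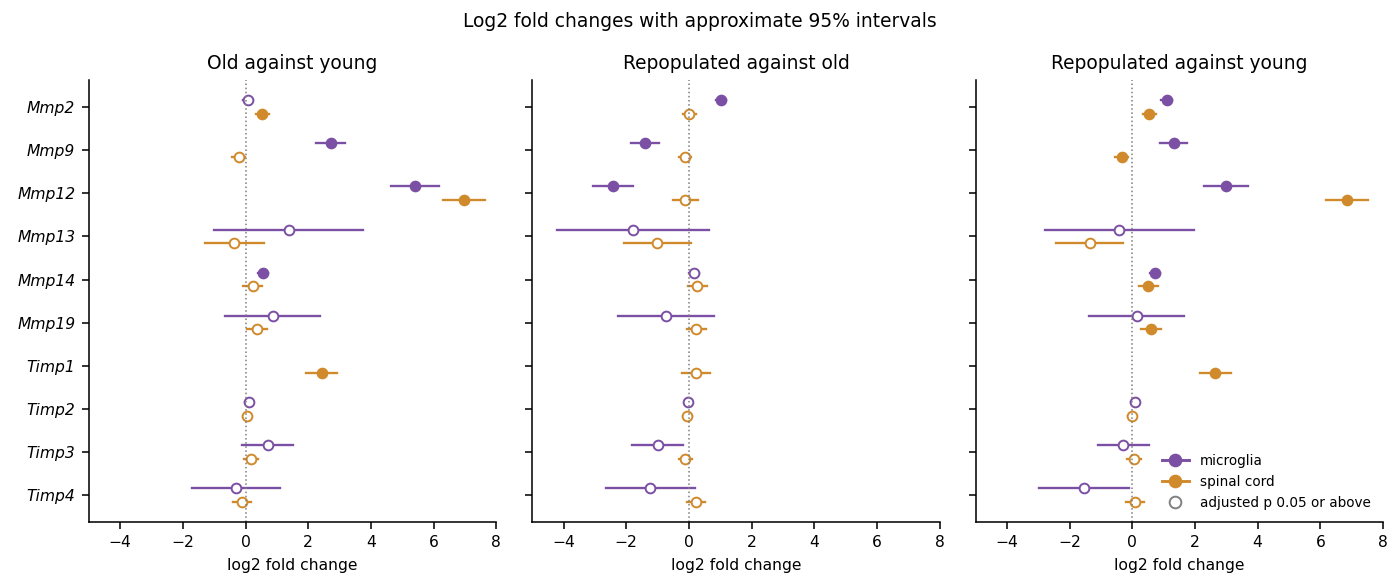
Log2 fold changes (horizontal axes) of the 10 genes in 3 comparisons, with approximate 95% intervals, for microglia and for spinal cord, filled where the adjusted p was under 0.05. Mmp12 is far to the right in old against young in both tissues (5.40 in microglia and 6.97 in cord), and in repopulated against old the filled points (Mmp2, Mmp9 and Mmp12) are those of microglia.

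The tissues were compared directly by an interaction test over all 48 libraries and 19110 genes, of which 20.5% were called in either direction for old against young and 11% for repopulated against old. Whether microglia and cord came from the same mice is not stated, and the test took all libraries as independent. The age difference of Mmp9 was larger in microglia than in the cord by a log2 of 2.77 (SE 0.28, adjusted p = 1.611e-10), and that of Mmp2 was smaller in microglia by 0.63 on the log2 scale (difference -0.63, SE 0.13, adjusted p = 0.0006025). For Mmp12 the difference was -1.72 (SE 0.64, adjusted p = 0.04862), but of 11 other settings only the DESeq2 Wald test called it in that direction (adjusted p = 0.0473), and on log2(TPM + 1) its sign turned, to 1.26 (adjusted p = 0.00166). The effect of repopulation differed for 4 genes. Relative to the cord, repopulated against old microglia had a higher log2 fold change for Mmp2 (difference 0.98, SE 0.13, adjusted p = 3.605e-06), and lower ones for Mmp9 (-1.32, SE 0.28, adjusted p = 0.001693) and Mmp12 (-2.30, SE 0.46, adjusted p = 0.0009708). The difference of -4.18 for Timp1 (SE 1.195, adjusted p = 0.01992) rests on microglia libraries at or near 0. Across 11 other settings it ran from -4.575 to -0.43 and kept its call in 8. Without repopulated cord replicate 6 the 4 differences for repopulated against old were 1.02, -1.22, -2.23 and -3.86 for Mmp2, Mmp9, Mmp12 and Timp1, all called. For old against young they were then 2.93 for Mmp9 and -0.48 for Mmp2, both called, and -1.55 for Mmp12, which was not (adjusted p = 0.0924), while Mmp14 was called at 0.32 (adjusted p = 0.0234). With TMM, 26.6% of interaction calls for old against young and 31.6% of those for repopulated against old were positive, against 49.3% and 38.9% with DESeq2 size factors and 51% and 14.8% with total counts, and the median of all genes was -0.15 and -0.10 with TMM. Brain microglia and spinal cord also differ in region and preparation, so these tests compare the sorted brain cells with the whole cord and not a cell with its own tissue.

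Summed per length, the 6 proteases were highest in old microglia, and this order rested on Mmp9, whose level moved with neutrophil markers. The protease sum was 208 to 279 TPM in repopulated microglia (median 224), 270 to 374 TPM in old (292) and 128 to 165 TPM in young (144). Only 1 repopulated library reached the range of old ones, and young libraries lay below all others. Without Mmp9, an alternative added after the data had been seen, the sum was 179 to 211 TPM in repopulated (median 187), 152 to 211 TPM in old (182) and 115 to 148 TPM in young microglia (127), so that repopulated and old libraries overlapped and both lay above young ones. The inhibitor sum had medians of 486, 596 and 565 TPM in repopulated, old and young microglia, of which Timp2 alone made up 98.3%, 96.9% and 97.6%. Between groups such sums depend on the TPM scale. With TMM, Timp2 had a log2 fold change of -0.02 in repopulated against old microglia and was not called. The ratio of inhibitor to protease transcripts had medians of 2.11, 2.05 and 3.98 in these groups, with young libraries (3.32 to 4.38) above all repopulated (1.76 to 2.35) and old ones (1.41 to 2.32). The proteases behind these ratios differed, since Mmp2 made up 37.5%, 17.0% and 34.9% of the protease sum in repopulated, old and young microglia. Without Mmp9 the ratio had medians of 2.54, 3.11 and 4.47, and repopulated libraries (2.12 to 2.69) lay below all old ones (2.90 to 3.97). In the cord the protease sum had medians of 86.7, 90.5 and 73.1 TPM, the inhibitor sum of 890, 897 and 818 TPM and the ratio of 10.01, 9.83 and 12.1 in repopulated, old and young cord. These cord ranges overlapped for the ratio, at 4.71 to 10.8 in repopulated (4.71 in replicate 6), 9.07 to 11.4 in old and 10.6 to 12.8 in young cord. Without replicate 6 the repopulated medians were 87.1 TPM for the proteases, 905 TPM for the inhibitors and 10.2 for the ratio. A ratio of transcripts is not a ratio of proteins.

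**Figure D5:**
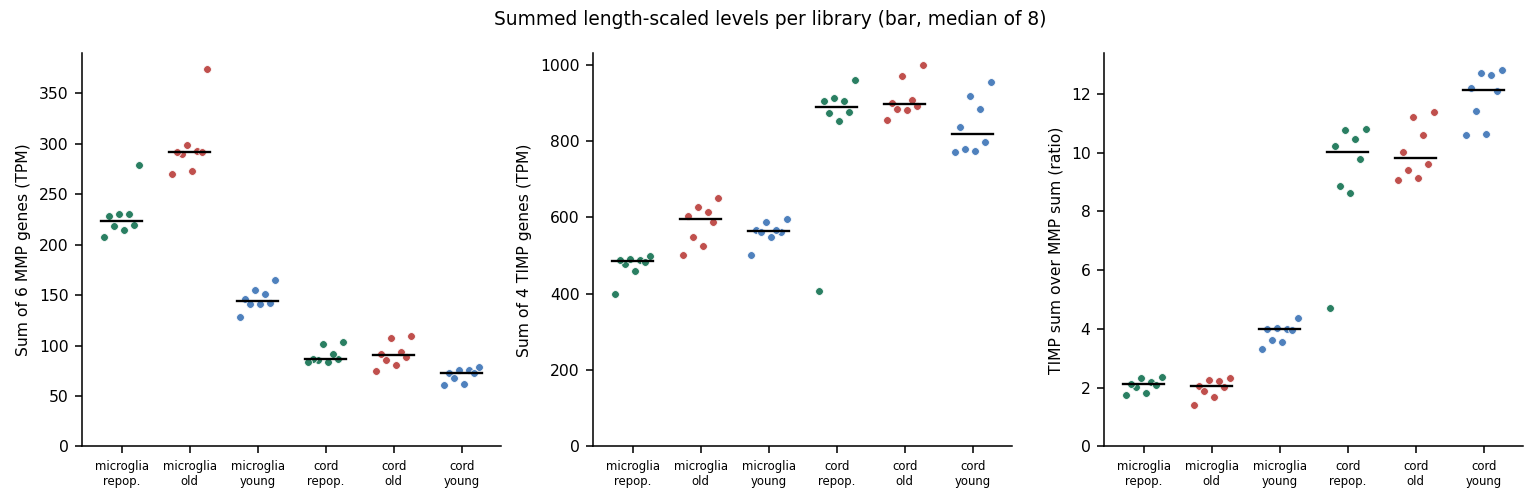
Sum of the 6 proteases (left), sum of the 4 inhibitors (middle), both in TPM, and inhibitor sum over protease sum (right, a ratio), one point per library with a bar at the median of 8. The protease sum is highest in old microglia (median 292 TPM), and the ratio is near 2 in repopulated and old microglia (2.11 and 2.05), 3.98 in young microglia and about 10 or more in the median of each cord group.

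The variation between libraries of 1 group separated the members further. After subtraction of group means from log2 CPM, the 3 genes most like Mmp9 among 9374 microglia genes that averaged 5 CPM or more were S100a9 (r = 0.905), Mmp8 (0.877) and Lcn2 (0.874), the first and last of which are among the neutrophil markers used above. For Mmp12 the highest were Fam84b (0.77), Slc16a7 (0.734) and Ralgapa1 (0.733), for Mmp14 Ap3b1 (0.732), Dctn2 (0.724) and Vps39 (0.724), and for Mmp2 Sertad1 (0.773), Olfml3 (0.767), which is a microglia marker, and Trmt12 (0.723). These are descriptions over 24 libraries, in which genes share the library, its depth and its cell mixture. In the cord replicate 6 decided many of the nearest genes, so those without it are given, over 23 libraries and 12243 genes. Mmp2 was most like Fbn1 (0.909), Nid1 (0.891) and Col15a1 (0.889), which encode matrix proteins of microfibrils and basement membranes. Mmp14 was most like Fzd2 (0.92), Col8a2 (0.908) and Scpep1 (0.907). Mmp19 was nearest to Flna (0.881), Cdh5 (0.852) and Ephb4 (0.843), and Mmp9 to Adgre5 (0.887), Itgb5 (0.877) and Sparc (0.869). For Timp1 these were Rpl6 (0.805), Dnase1l1 (0.78) and Cd109 (0.772), and for Mmp12 Egr3 (0.697), Tnrc18 (0.655) and Mettl6 (0.644).

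In the cord several members followed markers of other cell types from library to library. Without replicate 6, Timp3 had a correlation of 0.96 with the summed fibroblast and meningeal markers within groups, Mmp2 of 0.885, Mmp14 of 0.86 and Mmp19 of 0.71. Timp4 had 0.94 with oligodendrocyte and 0.92 with astrocyte markers, and Timp2 had -0.97 and -0.96 with these and 0.94 with neuronal markers. Timp2 and Timp4 accordingly ran against each other, with r = -0.862. Mmp9 had 0.79 with neutrophil markers in the cord as well, but also 0.69 with microglia, 0.65 with endothelial and -0.68 with neuronal markers. Mmp13 and Mmp19 had 0.745 and 0.70 with neutrophil markers. Mmp2, Mmp14 and Timp3 had 0.87, 0.86 and 0.88 with border macrophage markers, and Mmp19 had 0.735 with mural (vessel wall) markers. Members thus followed more than 1 list, and these values do not assign a gene to 1 cell type. Mmp12 followed none of the 11 marker lists there, with correlations between -0.09 and 0.24.

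Other genes of the family were taken from a list of 17, chosen with earlier results of these data known. In microglia 7 were tested, of which 2 were higher and 1 lower in old than in young, where 11% and 10.7% of all genes were. Mmp8, the neutrophil collagenase, had 19.1, 29.1 and 55.4 CPM in repopulated, 40.0, 92.7 and 150 CPM in old and 5.23, 10.8 and 28.3 CPM in young microglia, and it was higher in old than in young (log2 fold change 2.87, SE 0.29, adjusted p = 4.553e-09) and lower in repopulated than in old (-1.52, SE 0.27). Mmp25, a membrane-anchored protease of leukocytes, was higher in old than in young microglia by 2.21 (SE 0.27, adjusted p = 1.655e-07). Mmp15, a membrane-type protease, was lower in old than in young by 1.38 on the log2 scale (log2 fold change -1.38, SE 0.24), and Mmp15 and Mmp28 were both lower in repopulated than in old microglia, at -0.77 and -1.48. Of 10 tested in the cord, Mmp27, a gene of the chromosome 9 run, had 0.267 to 0.936 CPM in repopulated and 0.124 to 0.664 CPM in old cord and was at 0 in 7 of 8 young libraries, and it was called higher in old (adjusted p = 1.777e-07) and in repopulated than in young cord (adjusted p = 2.367e-08). Mmp11 was also called higher in both, at 0.41 and 0.42. Over all genes tested in the cord, 4.88% and 7.28% were called higher in these comparisons. Mmp1b, Mmp7 and Mmp20 had no read in any of the 48 libraries. Within the chromosome 9 run of 10 genes, Mmp12 and Mmp8 were called higher in old than in young microglia, among 3 tested (11% of all genes). Mmp12 and Mmp27 were called higher in old than in young cord, among 4 tested (4.88% of all genes). Mmp13, the neighbour of Mmp12, was called in neither tissue.

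Of 17 genes that activate, dock or clear metalloproteinases, a list chosen in the same way, 14 were tested in microglia. There 8 of 14 were called in old against young, all higher, where 11% of all genes were, with Cd44 (2.56, SE 0.22), a surface receptor that binds Mmp9, Plaur (1.80, SE 0.12), the receptor of urokinase, Lcn2 (3.20, SE 0.30), a partner of Mmp9 in neutrophils, and Thbs1 (0.95, SE 0.11) having the smallest adjusted p. In repopulated against old microglia, where 9.05% of all genes were higher and 7.2% lower, 2 of 14 were higher, Lrp1 (0.41), an endocytic receptor that clears proteases, and Furin (0.27), which cleaves the propeptide of Mmp14, and 4 were lower, among them Plaur (-0.67) and Lcn2 (-1.60). In the cord 16 were tested. There 5 were higher in old than in young, against 4.88% of all genes, among them Plau (1.16, SE 0.15), the plasminogen activator urokinase, A2m (0.51), Plaur (0.78) and Reck (0.36). In repopulated against young cord 3 were higher, against 7.28% of all genes. In repopulated against old cord none of the 16 passed the edgeR test, at an adjusted or an unadjusted p of 0.05.

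Related proteases and substrates were counted from lists chosen in the same way, and over all genes 11% were higher and 10.7% lower in old than in young microglia and 4.88% and 1.26% in old than in young cord. With lists this short, several of the counts below lie near these shares. Of 8 ADAM proteases tested in microglia, Adam8 (3.32) and Adam19 (1.73) were higher in old than in young and 2 others were lower. In repopulated against old microglia 4 were higher, including Adam9 (0.69) and Adam17 (0.39), and 2 lower. Over all genes 9.05% were higher and 7.2% lower in that comparison. Of 9 tested in the cord, Adam8 (0.50) and Adam33 (0.45) were higher in old than in young. Of 5 ADAMTS proteases tested in microglia Adamts1 was higher in old than in young (1.10), and of 12 tested in the cord Adamts10 was lower (-0.19). Of 12 matrix substrates tested in microglia, Fn1 (2.49), Vcan (3.13) and Agrn (0.47) were higher and Nid2 (-0.90) was lower in old than in young. Of 16 tested in the cord, Tnc (0.72) was higher and Ncan (-0.45) and Eln (-0.45) were lower in old than in young. Lcn2 and Fn1 also stand in the neutrophil and monocyte marker lists. Among the genes that overlap the inhibitors, Syn1, the host of Timp1, was lower in old than in young cord (log2 fold change -0.14, adjusted p = 0.0454) while Timp1 was higher, and they share no exon bases. Syn2, Syn3 and Cep295nl, a neighbour of Timp2, were not called in either tissue.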

How the data were processed

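Gene counts, TPM and FPKM tables were deposited for 48 libraries. The deposited counts are whole reads per gene under Entrez identifiers, used as they stand. The deposited TPM equal counts divided by the authors' gene length in bases and rescaled per library, as checked to within 0.001. The FPKM were not used. Per the labels' protocols the kit was TruSeq v2 on RNA of sorted cells or frozen cord. STAR 2.5.2b and GRCm38.p5 appear, without a role, in the submitters' processing notes. What counted the reads is not given there. Of the genes, 17 have no symbol.

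The main test was that of edgeR 4.0.16 under R 4.3.3 (quasi-likelihood test, TMM, filterByExpr with a minimum count of 10 and a minimum total of 15), per tissue over 24 libraries, with Benjamini-Hochberg adjustment over all genes tested. Tissue differences are interaction contrasts over 48 libraries. Standard errors are the log2 fold change divided by the root of F, and intervals are 1.96 standard errors to each side. Likeness is Pearson's r of group-centred log2 CPM (prior count 1). No 2 libraries of a group agreed within sampling noise by a chi-square test of their counts. Steps were tested on simulated data. The 10 genes and all lists were chosen with earlier results of these data known. Named are all 10 genes, up to 4 called genes of each list with the smallest adjusted p and list genes without reads, the 3 genes most like each called member, and overlapping genes. A list gene that this rule would name is not reported here. Alternatives were DESeq2 1.42.0 (size factors and Wald test), total counts, 2 other filters, limma 3.58.1 on log2 TPM with pseudocounts of 1 or 0.1, a block for the replicate number, fewer groups and libraries left out.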

Additional observations from a re-analysis of the deposited data

Results flagged for a closer look

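Of 60 sets of 8 libraries, one for each gene and group, 10 held a library that lay far from the others by Dixon's 95% criterion, where chance gives about 1 in 20. Repopulated cord replicate 6 accounts for 4 of them, as the highest of its group for Mmp14 (168 CPM, next 76.5), Timp1 (17.5 CPM, next 8.45), Timp4 (95.4 CPM, next 50.2) and Mmp13 (0.562 CPM, next 0.325). In microglia, Timp1 stood alone in repopulated replicate 1 (0.107 CPM, all others at 0), in old replicate 4 (1.56 CPM, next 0.55) and in young replicate 1 (0.111 CPM, next 0.0297), Timp4 in repopulated replicate 4 (4.44 CPM, next 1.12) and Timp3 in young replicate 4 (32.3 CPM, next 22.4). In the cord, Mmp12 stood alone in young replicate 7 (0.184 CPM, next 0.0849).

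Differences between tissues passed the interaction test of edgeR for the following genes. For old against young, the log2 difference of microglia minus cord was 2.77 for Mmp9, -0.63 for Mmp2 and -1.72 for Mmp12. For repopulated against old it was 0.98 for Mmp2, -1.32 for Mmp9, -2.30 for Mmp12 and -4.18 for Timp1, the last with microglia at or near 0.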

How the results depend on the processing

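Most values of single genes kept their side of the threshold under the alternatives (1660 of 1718). A value that was called neither in the main fit nor in the alternative counts as kept, whatever its sign. Mmp14 in repopulated against old microglia, for example, ran from -0.09 to 0.18 without a call. Of the others 29 lost a call, 25 gained one and 4 turned sign where a call was involved. The number of members called in repopulated against old microglia (3) became 5 with total counts, 6 on both TPM scales and 3 to 5 when 1 library was left out, and the added calls were lower inhibitors, Timp2 (-0.19) and Timp3 (-1.17) with total counts, and Timp4 as well on TPM. Timp2 in repopulated against young microglia turned to -0.24 on both TPM scales. In the tissue difference of old against young, Mmp12 turned to 1.26 and Timp1 to -1.87 on log2(TPM + 1). In repopulated against young cord, Mmp2 and Mmp19 lost their calls on TPM, Mmp9 without young replicate 4 or 8, and Mmp14 without repopulated replicate 2 or young replicate 3, 6, 7 or 8 (adjusted p from 0.0515 to 0.0734) and with only the groups compared (0.11). The cause was not tested.

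Counts over all genes moved as follows. On log2(TPM + 1) and log2(TPM + 0.1), repopulated against old microglia had 4779 and 4643 calls, repopulated against young microglia 7378 and 7478, repopulated against old cord 13 and 12, repopulated against young cord 1030 and 1003, and the tissue difference of old against young 2076 and 1835. Repopulated against old cord had 66 calls with the DESeq2 Wald test and 16 to 57 when 1 library was left out. With only the groups compared, old against young cord had 1844, repopulated against young cord 1211 and the tissue difference of repopulated against old 1137, and without repopulated cord replicate 6 old against young cord had 2109. With total counts the tissue differences had 2606 and 3307. With the neutrophil covariate, added after the data had been seen, old against young microglia had 379, repopulated against old 1204 and repopulated against young 2799.

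The labels do not say whether replicate numbers pair libraries. At most 4 of 8 pairs per comparison correlated over 0.1, with r up to 0.431 in repopulated against young cord, which cannot decide it. With the replicate block, old against young microglia had 2909 calls and the members called were 3, 3 and 5 in microglia and 3, 0 and 4 in cord. Timp4 was then called in repopulated against young microglia (-2.26, adjusted p = 0.0469), and Mmp9 (0.0685) and Mmp14 (0.106) were not in repopulated against young cord. In microglia Timp1 lies at or under the limit of 3 reads in most libraries and Mmp13 is at 0 in 9 of 24, which limits what could be detected for these genes at this depth.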
